A study of Mus musculus with 18 samples.

Results

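HDAC1–E63R and HDAC1-WT rescue cells were compared after both had lost their endogenous Hdac1 and Hdac2. The comparison held the 3 libraries of OHT-treated HDAC1–E63R cells and the 3 libraries of OHT-treated HDAC1-WT cells, which are 6 of the 18 libraries of the series and were chosen by their sample titles alone. All lines were mouse embryonic stem cells (ESCs) of the E14TG2a background in which both copies of Hdac1 and of Hdac2 are flanked by lox sites (Hdac1/2 lox/lox), so that OHT (4-hydroxytamoxifen) removes the genes. The ESCs were grown on gelatine in serum with LIF. A stable piggyBac transgene then provided HDAC1, either unmutated (HDAC1-WT) or with arginine in place of glutamate at residue 63 (HDAC1–E63R), and the labels give 1 µM OHT with a duration of 5 days, whereas the study's methods describe exposure for a part of that time followed by further culture. The untreated cells of both lines carried the same transgenes together with the endogenous genes, and OHT-treated cells of a line with a further surface substitution (HDAC1–Y48E) served for side-by-side values. One line was sequenced per transgene, and whether it was a clone or a pool is not given in the sources used here, so the mutation and any other property of the line cannot be told apart. The study calls the libraries of a group biological replicates, but neither it nor the labels says how separate their cultures were, and p-values measure the spread between these libraries.

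HDAC1 and HDAC2 remove acetyl groups from histone lysines and work inside several multiprotein complexes, among them SIN3, NuRD, CoREST, MiDAC, MIER and RERE. In each complex a scaffold protein grips the surface of the deacetylase, and most scaffolds do so through an ELM2–SANT domain, whereas the SIN3 proteins do not. The substitution at residue 63 lies on this surface and was made to change which scaffolds HDAC1 can hold. In ESCs these complexes are known for restraining lineage genes and for tuning the pluripotency network. The comparison asks which genes differ between cells that live on the mutated and on the unmutated enzyme alone.

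Each of the 6 libraries held between 9718516 and 11454638 counts assigned to genes, and 18791 genes had enough counts to be tested. A count of 3, the upper limit that a count of 0 allows, corresponded to between 0.248 and 0.294 CPM (counts per 1000000, scaled between libraries) in these libraries, and such floors and the intervals below cover counting error only. The summed level of 10 ESC markers lay between 8650 and 9560 CPM in the OHT-treated HDAC1-WT libraries and between 5110 and 5430 CPM in the OHT-treated HDAC1–E63R libraries, and none of the 10 was without counts in either group. Of 8 fibroblast markers Col3a1, Lum, Dcn and Postn had no counts in OHT-treated HDAC1-WT, and the summed level of the 8 was between 62.2 and 66.1 CPM there against 60.6 to 68.7 CPM in OHT-treated HDAC1–E63R. One library stood apart, the third of the untreated HDAC1–E63R cells, with a scaling factor of 0.814 against 0.960 and 0.977 in the other libraries of its group. It enters no value of the OHT-treated lines other than the shared estimate of spread, but it bears on the results from the untreated cells. Some of those whose call or count changed without it are given both ways. In bulk RNA a lower level in fewer cells and a lower level in every cell cannot be told apart.

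Hdac1 counts can include RNA from the transgene, and those of both genes can include transcripts of a deleted allele, so they do not check the labels. Hdac1 measured 169, 173 and 179 CPM in the OHT-treated HDAC1-WT libraries and 112, 123 and 131 CPM in the OHT-treated HDAC1–E63R libraries (log2 fold change -0.51 ± 0.09, adjusted p = 1.99e-04). Hdac2 measured 112, 126 and 133 CPM and 149.7, 152 and 158 CPM (log2 fold change 0.31 ± 0.11, adjusted p = 0.042). The groups did not overlap for either gene, and neither was called. Fold changes here are of OHT-treated HDAC1–E63R over OHT-treated HDAC1-WT with their standard errors, adjusted p-values come from edgeR's quasi-likelihood test with Benjamini-Hochberg adjustment over all tested genes, and DEG (differentially expressed gene) stands for one that passed 2 limits, 0.01 on the adjusted p and 2-fold on the change.

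The genes of the 15 HDAC1-binding scaffolds gave no DEG. Their log2 fold changes ran from -0.98 to 0.87 with a median of -0.32, while the median over all tested genes was 0.01. Mta3, a scaffold of NuRD, lay nearest the limit with 206, 227 and 215 CPM in OHT-treated HDAC1-WT and 110.3, 110.4 and 108 CPM in OHT-treated HDAC1–E63R (log2 fold change -0.98 ± 0.12, adjusted p = 1.64e-06), and it passed both limits, at -1.01, when the first HDAC1-WT library was left out. Sin3b, a SIN3 scaffold on chromosome 8, lay at the other end with 92.7, 85.6 and 87.4 CPM and 153, 166 and 167 CPM (log2 fold change 0.87 ± 0.14, adjusted p = 6.14e-05). Rcor1, a scaffold of CoREST, measured 94.4, 91.2 and 73.7 CPM and 50.4, 52 and 53.7 CPM (log2 fold change -0.73 ± 0.17, adjusted p = 0.0018). By edgeR and by DESeq2 no DEG was found among the scaffolds, 14 further NuRD subunits, 18 of SIN3, 10 of CoREST and MiDAC, or 12 histone acetyltransferases. An adjusted p under 0.01 alone was reached by 19.3% of all tested genes. Among the 15 scaffolds 1 gene was higher and 5 were lower at that limit, and among the 14 NuRD subunits 3 were higher and none lower. Of the SIN3 subunits 3 were higher and 1 lower, of those of CoREST and MiDAC 1 and 1, and of the acetyltransferases none. The lack of a DEG thus does not mean that these genes were unchanged. Of 9 other deacetylases 2 rose and 1 fell, at a median log2 fold change of -0.62. Hdac8 fell from 6.45, 5.26 and 5.74 CPM to 1.32, 3.05 and 2.45 CPM (log2 fold change -1.36 ± 0.38, adjusted p = 0.0088), a call lost in 5 of the 6 models that left out 1 OHT-treated library. Hdac9 rose from 1.06, 0.454 and 1.06 CPM to 5.79, 4.86 and 4.4 CPM (log2 fold change 2.54 ± 0.44, adjusted p = 1.33e-04), and Hdac11, on chromosome 6, from 10.1, 15 and 11 CPM to 24.8, 27.6 and 27.4 CPM (log2 fold change 1.14 ± 0.17, adjusted p = 2.41e-05).

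Between the OHT-treated lines 1758 genes were DEGs, 1114 higher and 644 lower in HDAC1–E63R, which is 5.93% and 3.43% of the genes tested. These shares are the background for the counts of list members below. An adjusted p under 0.01 alone was reached by 3631 genes. Genes that rose were often ones hardly detected in OHT-treated HDAC1-WT. Of the 1114, 456 (40.9%) had a mean under 1 CPM there, as had 14.1% of all tested genes, and 167 had no count in any of its 3 libraries. Genes without counts there passed the filter through other groups, so they could hardly be called other than higher. Of the 644 that fell, 53 (8.23%) had a mean under 1 CPM in OHT-treated HDAC1–E63R, as had 11.4% of all tested genes, and 5 had no count. More than 8-fold changes were fitted for 418 genes that rose and 38 that fell. By annotated class, the share called higher was 6.1% of 14809 protein-coding genes, 8.5% of 647 long intergenic RNAs, 4.65% of 839 processed pseudogenes, 15.0% of 100 unprocessed pseudogenes and 10.1% of 69 miRNA genes. The 3 libraries of one group lay wholly above or below the 3 of the other at 9492 genes, 50.5% of those tested, so a lack of overlap on its own marks no gene out. It was also a condition for naming most of the genes below, and for them it is no further evidence. The exceptions are the scaffolds, the genes the study names and genes given as values.

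Much of the difference was already present between the untreated lines. Between the untreated cells 623 genes were higher and 814 lower in HDAC1–E63R (3.32% and 4.33% of the genes tested). Of the 1758 DEGs of the OHT-treated lines, 688 (39.1%) were also called in the same direction without OHT, 347 higher and 341 lower, and these are 47.9% of the DEGs of the untreated lines. The 2 comparisons share no library. Among the genes that fell, 53% were called without OHT too, with a median log2 fold change of -1.62 after OHT and -1.67 without it. Among those that rose 31.1% were, at 2.4 and 2.0. The sign without OHT was the same at 950 of the 1114 and 616 of the 644. Without the third untreated HDAC1–E63R library 614 genes were higher and 748 lower between the untreated lines, and 374 were higher and 347 lower in both comparisons.

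Whether the lines differed more after OHT than before it was tested for each gene as an interaction of line and OHT. It was called upward at 234 genes (1.25%) and downward at 82 (0.436%). Of the DEGs between the OHT-treated lines, 127 that rose and 29 that fell had an interaction in their own direction, 8.87% of the 1758. Without the third untreated HDAC1–E63R library these were 212 and 45, and the interaction was called upward at 367 genes and downward at 119. At 17 genes HDAC1–E63R was called higher after OHT and lower without it. Leaving out 1 of the 12 libraries moved the upward count down to 152, without the first untreated HDAC1-WT library, and the downward count between 52, without the first or second OHT-treated HDAC1–E63R library, and 146, without the second untreated one. For the remaining DEGs a change in the difference with OHT was not called, which does not show that the difference stayed the same.

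**Figure D1:**
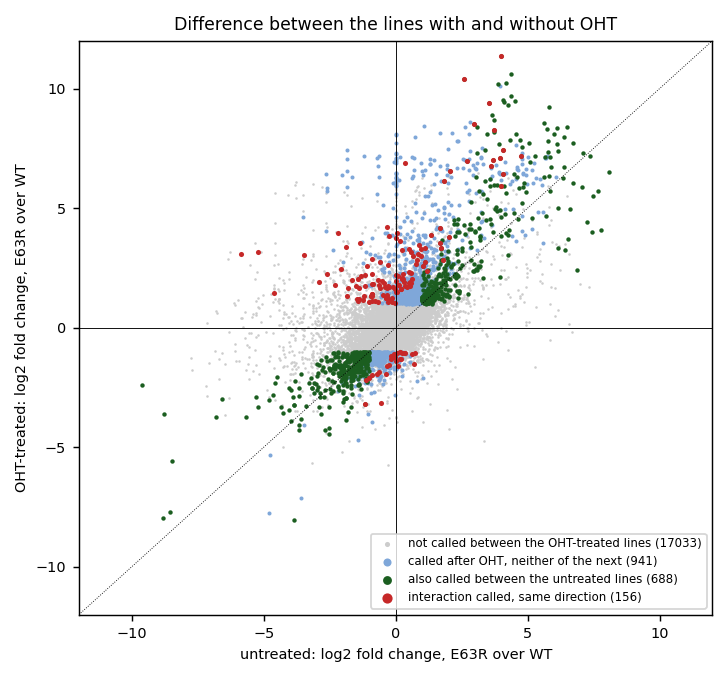
Each point is 1 of 18791 tested genes, placed by its fitted log2 fold change of HDAC1–E63R over HDAC1-WT in untreated cells (x axis) and in OHT-treated cells (y axis), with equal change on the dotted line. The green points (688, called in both) follow the line most closely among the genes that fell, and the red points (156, interaction called in the same direction, 27 of them also called untreated) lie off it. Fitted values of genes without counts in a group depend on a small prior count.

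Genes of the 2-cell state were among those that rose most. These genes, among them the Zscan4 zinc-finger cluster, the Usp17l deubiquitinases and Tcstv3, are known for a burst of transcription in the 2-cell embryo and for rare, transient expression in ESC cultures. Of 19 tested members of the list 18 rose and none fell, where 5.93% and 3.43% of all tested genes did. The median log2 fold change of the list was 6.13, or 5.82 with genes lacking counts in OHT-treated HDAC1-WT set at their lower bound. The summed level of Zscan4c, Zscan4d, Tcstv3, Usp17lc and Zfp352 lay between 0.289 and 1.85 CPM in the OHT-treated HDAC1-WT libraries and between 135 and 143 CPM in the OHT-treated HDAC1–E63R libraries.

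The Zscan4 genes lie side by side on chromosome 7. The promoter windows of 4 of the 6 tested, from 250 bases before to 50 bases after the start in RefSeq (GRCm38.p6, the release of mm10), are shown because the genes moved together and because they show how alike the copies are. Capitals mark TATAAA, searched on both strands.
Zscan4b (chr7:10905001-10905300, minus strand): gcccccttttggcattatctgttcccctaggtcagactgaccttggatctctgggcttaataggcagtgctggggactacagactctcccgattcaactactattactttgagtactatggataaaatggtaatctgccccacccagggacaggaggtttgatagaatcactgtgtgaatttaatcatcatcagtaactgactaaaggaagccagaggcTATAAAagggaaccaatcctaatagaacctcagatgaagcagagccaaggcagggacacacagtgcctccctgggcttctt
Zscan4f (chr7:11397665-11397964, plus strand): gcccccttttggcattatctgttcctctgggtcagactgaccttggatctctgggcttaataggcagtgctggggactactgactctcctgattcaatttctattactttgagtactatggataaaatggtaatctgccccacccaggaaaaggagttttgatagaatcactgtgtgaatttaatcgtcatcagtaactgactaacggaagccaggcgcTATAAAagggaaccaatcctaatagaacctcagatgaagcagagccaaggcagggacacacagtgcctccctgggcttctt
Zscan4c (chr7:11005495-11005794, plus strand): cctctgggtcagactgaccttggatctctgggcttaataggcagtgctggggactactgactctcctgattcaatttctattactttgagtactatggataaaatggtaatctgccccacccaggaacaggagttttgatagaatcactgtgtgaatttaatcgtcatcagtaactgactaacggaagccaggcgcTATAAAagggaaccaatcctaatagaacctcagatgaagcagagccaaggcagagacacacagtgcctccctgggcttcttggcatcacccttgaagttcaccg
Zscan4d (chr7:11166099-11166398, minus strand): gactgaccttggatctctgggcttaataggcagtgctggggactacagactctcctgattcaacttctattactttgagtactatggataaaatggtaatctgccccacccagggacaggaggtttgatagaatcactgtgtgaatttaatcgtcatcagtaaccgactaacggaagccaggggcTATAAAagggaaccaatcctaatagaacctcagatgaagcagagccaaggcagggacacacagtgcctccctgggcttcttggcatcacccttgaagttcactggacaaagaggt
Zscan4b and Zscan4f were identical at 95.7% of alignment columns, Zscan4c and Zscan4d at 90.4%, and Zscan4d and Zscan4f, the lowest pair, at 77.5%. Columns where a window had a gap or ran past the other counted as not identical. The windows begin at different distances from TATAAA, so the lower shares include this offset and do not rank the pairs by sequence. Each window held TATAAA once, at position -31 from the start in Zscan4b and Zscan4f, at -54 in Zscan4c and at -65 in Zscan4d. Of all 27025 genes with a window, 14.2% held these letters on either strand, as did 7.23% of the 12440 tested genes with one. The match is a description only.

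Near-identical copies also limit the counts, since each Zscan4 transcript shared at least 200 bases at 95% identity or more with 9 other annotated genes. How the reads were shared among members is therefore uncertain. Zscan4d measured 0, 0.907 and 1.15 CPM in the OHT-treated HDAC1-WT libraries and 76.2, 73.5 and 84.9 CPM in the OHT-treated HDAC1–E63R libraries (log2 fold change 6.78 ± 0.33, adjusted p = 1.62e-12). Zscan4c measured 0.193, 0 and 0.707 CPM and 41.1, 40.8 and 39.5 CPM (log2 fold change 7.0 ± 0.41, adjusted p = 2.32e-11). Every HDAC1–E63R library was far above every HDAC1-WT library for both. Zscan4e had 1 count in all 3 HDAC1-WT libraries together against 28.9, 30.6 and 27.8 CPM in HDAC1–E63R, a ratio of 952 (95% counting interval 170.5 to 37640) with adjusted p = 1.96e-12. Zscan4f had 2 counts in HDAC1-WT against 22.4, 29.9 and 28.2 CPM, a ratio of 436 (95% counting interval 120.2 to 3603) with adjusted p = 2.77e-12, and Zscan4b had none against 8.61, 6.38 and 10.2 CPM, at least 30.5-fold higher (adjusted p = 2.79e-08). Zscan4a measured 0.77, 0.726 and 0.265 CPM and 33.3, 35.7 and 37.9 CPM (log2 fold change 5.91 ± 0.28, adjusted p = 1.24e-12).

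Outside this cluster, Usp17ld had 2 counts in OHT-treated HDAC1-WT and 9.6, 8.29 and 9.59 CPM in OHT-treated HDAC1–E63R, a ratio of 150.2 (95% counting interval 41.2 to 1246) with adjusted p = 1.89e-09. It shared 1988 bases of near-identical sequence with Usp17lc. Zfp352, a zinc-finger gene of the early embryo, had no counts in HDAC1-WT and 4.39, 6.29 and 1.66 CPM in HDAC1–E63R, at least 14.9-fold higher (adjusted p = 8.56e-06), and Tdpoz4, a speckle-type BTB gene, had none against 1.49, 4.48 and 3.13 CPM, at least 11-fold higher (adjusted p = 7.20e-05). Kdm4dl, a relative of a histone demethylase, had none against 6.29, 8.86 and 7.73 CPM, at least 27.7-fold higher (adjusted p = 9.88e-08). Libraries of the 2 groups did not overlap for any of these, which was a condition for naming them.

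Most 2-cell genes were also higher in untreated HDAC1–E63R, and for some the difference was larger after OHT. Without OHT 16 of the 18 were called higher in HDAC1–E63R, and 16 again with the third of its libraries left out. Zscan4d measured 1.12, 1.09 and 1.0 CPM in untreated HDAC1-WT and 11.8, 9.26 and 18.8 CPM in untreated HDAC1–E63R (log2 fold change 3.62 ± 0.34, adjusted p = 6.00e-08). Its difference between lines was larger after OHT by 3.16 ± 0.58 on the log2 scale (adjusted p = 0.0019). The interaction was called at 8 of the 19 members, and at 9 without the third library. In OHT-treated HDAC1–Y48E the level of Zscan4d was higher still, at 155, 153 and 146 CPM, although that difference from OHT-treated HDAC1–E63R did not reach 2-fold (log2 fold change 0.95 ± 0.21, adjusted p = 0.0022).

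**Figure D2:**
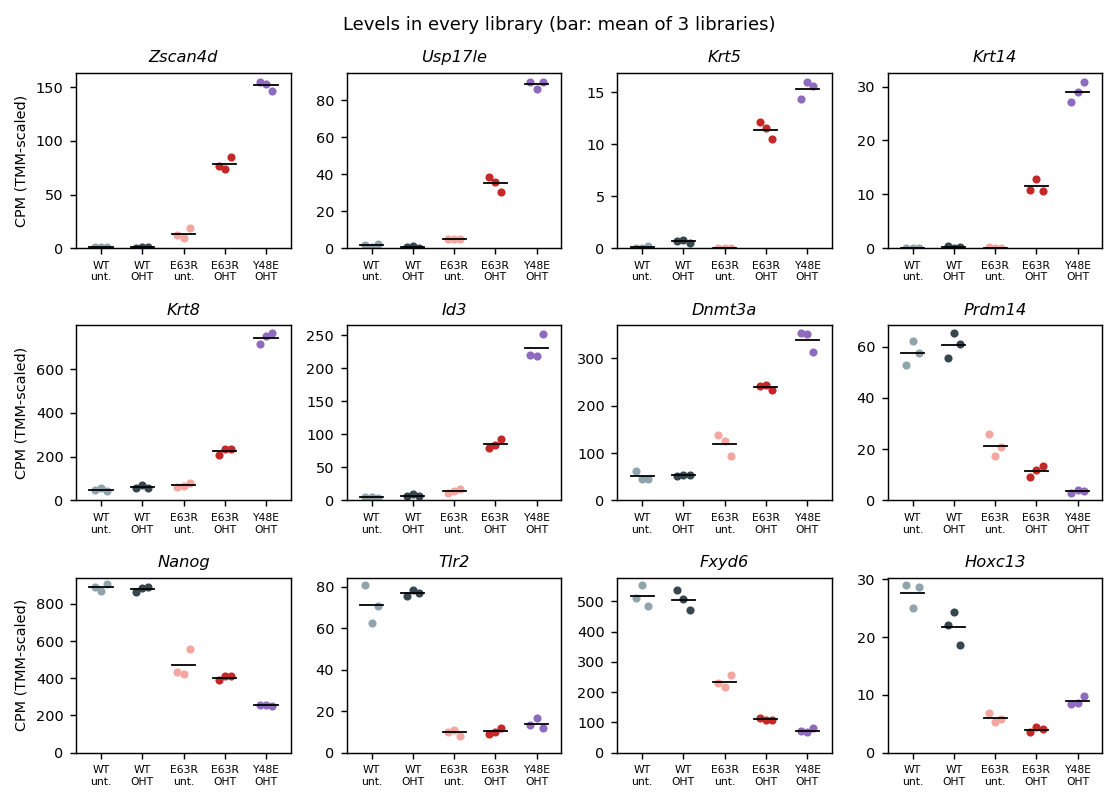
Scaled level in CPM (y axis, from 0, a scale of its own in each panel) of 12 genes in every library of 5 groups, with points for libraries and a bar for the mean of 3. Zscan4d, Usp17le, Krt5, Krt14, Krt8 and Id3 were near their lowest in both HDAC1-WT groups, and Prdm14, Tlr2, Fxyd6 and Hoxc13 were highest there.

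Naive pluripotency genes fell in part. The naive network keeps ESCs in their ground state, with Nanog, Klf4, Tbx3, Tfcp2l1 and Prdm14 among its transcription factors. Of 26 tested members 7 fell and 3 rose (26.9% and 11.5%), with a median log2 fold change of -0.75. Prdm14, which represses DNA methyltransferase genes, fell from 55.5, 65.2 and 60.9 CPM to 9.11, 11.9 and 13.3 CPM (log2 fold change -2.41 ± 0.17, adjusted p = 6.78e-10). Tbx3 fell from 229.5, 226 and 265 CPM to 61.5, 76.4 and 67.7 CPM (log2 fold change -1.81 ± 0.13, adjusted p = 5.90e-10), and Tfcp2l1 from 634, 639.7 and 622 CPM to 227, 197 and 201 CPM (log2 fold change -1.6 ± 0.18, adjusted p = 7.35e-07). The libraries of the 2 lines were well apart for all 3 genes. Klf4 fell from 286, 297 and 339 CPM to 130.5, 124 and 108 CPM (log2 fold change -1.35 ± 0.10, adjusted p = 1.60e-09). Nanog fell from 866, 885 and 889 CPM to 389, 410.3 and 412 CPM (log2 fold change -1.12 ± 0.10, adjusted p = 1.19e-08), although it lies on chromosome 6, whose genes were higher on the whole. Fgf4, the ESC's own FGF ligand, fell from 293, 289 and 283 CPM to 129.6, 122 and 128 CPM (log2 fold change -1.19 ± 0.09, adjusted p = 1.11e-09).

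The pluripotency factors Pou5f1 and Esrrb were lower by less than 2-fold. Pou5f1, which encodes OCT4, measured 1187, 1174 and 1259 CPM in OHT-treated HDAC1-WT and 685, 735 and 717 CPM in OHT-treated HDAC1–E63R (log2 fold change -0.76 ± 0.13, adjusted p = 1.05e-04). Esrrb, a nuclear receptor of the naive network, measured 586, 612 and 689 CPM and 384, 377 and 373 CPM (log2 fold change -0.74 ± 0.11, adjusted p = 1.71e-05). Neither was a DEG, though their libraries did not overlap. In untreated cells Pou5f1 measured 1291, 1296 and 1178 CPM in HDAC1-WT and 1083, 934 and 1565 CPM in HDAC1–E63R (log2 fold change -0.07 ± 0.13, adjusted p = 0.72). Prdm14, Klf4, Tbx3 and Tfcp2l1 were DEGs in the same direction between the untreated lines, and Nanog was one too when the third untreated HDAC1–E63R library was left out. Fgf4 differed little without OHT (log2 fold change -0.17 ± 0.09, adjusted p = 0.15), and its interaction was called (log2 interaction -1.02 ± 0.12, adjusted p = 2.06e-05), although without that library it fell just short of the 2-fold limit.

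The 3 members that rose carry the Dppa name. Dppa2 and Dppa4 encode partner proteins that bind CpG-rich DNA and are known to promote 2-cell genes, and Dppa3 encodes a maternal factor that protects against methylation. Dppa2 rose from 21.8, 21.3 and 38.1 CPM to 86.4, 83 and 93.8 CPM (log2 fold change 1.7 ± 0.20, adjusted p = 1.05e-06) and Dppa4 from 30.9, 35.1 and 27.3 CPM to 71.3, 72 and 86.6 CPM (log2 fold change 1.3 ± 0.16, adjusted p = 1.50e-06). Dppa3, on chromosome 6, rose from 6.93, 4.72 and 6.18 CPM to 19.3, 13.9 and 19.8 CPM (log2 fold change 1.57 ± 0.25, adjusted p = 4.00e-05). All 3 were DEGs in the same direction without OHT, and each has at least 1 near-identical pseudogene copy.

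The de novo DNA methyltransferases were higher. Dnmt3a and Dnmt3b place methyl groups on unmethylated DNA, and Dnmt3l assists them without activity of its own. Of 9 genes of DNA methylation, counting Prdm14, 3 rose and 1 fell. Dnmt3a rose from 52.1, 54.5 and 54.1 CPM to 241, 243 and 234 CPM (log2 fold change 2.16 ± 0.14, adjusted p = 2.11e-10), Dnmt3b from 32, 33.2 and 36.1 CPM to 103, 105 and 118 CPM (log2 fold change 1.68 ± 0.17, adjusted p = 7.74e-08), and Dnmt3l from 182, 169.8 and 169.6 CPM to 386, 406 and 394 CPM (log2 fold change 1.19 ± 0.11, adjusted p = 4.75e-08). Each rise was clear of the spread between libraries. The difference was present without OHT at Dnmt3a (log2 fold change 1.24 ± 0.14, adjusted p = 9.75e-07) and was just under 2-fold at Dnmt3b (log2 fold change 0.94 ± 0.17, adjusted p = 1.84e-04), which passed the limit when the third untreated HDAC1–E63R library was left out.

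Genes of the formative and primed states moved both ways. These states follow the naive state as cells approach differentiation. Of 15 tested members 6 rose and 3 fell, with a median log2 fold change of 0.27. Pou3f1, a POU factor of the primed epiblast, rose from 3.27, 4.45 and 4.68 CPM to 22.9, 23.4 and 23.1 CPM (log2 fold change 2.48 ± 0.23, adjusted p = 3.50e-08), and Etv4, an ETS factor downstream of FGF, from 21.9, 19.9 and 28.8 CPM to 82.5, 85.9 and 89.5 CPM (log2 fold change 1.87 ± 0.17, adjusted p = 2.09e-08). Sox3 rose from 0.385, 0.816 and 1.68 CPM to 6.87, 6.76 and 6.46 CPM (log2 fold change 2.77 ± 0.42, adjusted p = 2.37e-05). Otx2, a homeobox gene central to the same transition, instead fell from 66, 69.2 and 77.5 CPM to 8.53, 4.67 and 7.92 CPM (log2 fold change -3.33 ± 0.26, adjusted p = 3.08e-09), and Zic2 from 32.5, 45.4 and 62.4 CPM to 15.4, 14.3 and 11.5 CPM (log2 fold change -1.76 ± 0.22, adjusted p = 1.75e-06). The fall of Otx2 was larger without OHT, with 44.6, 46.2 and 50.4 CPM in untreated HDAC1-WT and 1.57, 0.565 and 1.6 CPM in untreated HDAC1–E63R (log2 fold change -5.21 ± 0.33, adjusted p = 1.96e-10). Fgf5, the usual ligand marker of the primed state, had no counts in OHT-treated HDAC1–E63R and was not tested.

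Some keratin genes of stratified epithelium were higher in OHT-treated HDAC1–E63R. Krt5 and Krt14 pair in basal keratinocytes, while Krtdap and Dmkn are keratinocyte secreted proteins. Of 18 tested members of the keratinocyte list 8 rose and none fell, at a median log2 fold change of 2.26, or 1.88 with genes lacking counts in OHT-treated HDAC1-WT at their bound. Krt5, Krt14 and Krtdap were picked out by the study from these libraries, so their direction is not independent evidence. The same holds for Krt8, given further below. Krt5 measured 0.674, 0.816 and 0.53 CPM in OHT-treated HDAC1-WT and 12.2, 11.6 and 10.5 CPM in OHT-treated HDAC1–E63R (log2 fold change 4.06 ± 0.41, adjusted p = 5.80e-07). Krt14 measured 0.385, 0 and 0.265 CPM and 10.8, 12.9 and 10.7 CPM (log2 fold change 5.66 ± 0.51, adjusted p = 1.28e-07), and Krtdap 1.73, 2.9 and 1.24 CPM and 10.2, 14.7 and 14.8 CPM (log2 fold change 2.75 ± 0.41, adjusted p = 2.32e-05). No library of one line reached the range of the other at any of the 3 genes. Dmkn rose from 1.06, 0.726 and 0.265 CPM to 11.1, 9.05 and 7.63 CPM (log2 fold change 3.75 ± 0.64, adjusted p = 1.13e-04). Krt6a, a stress keratin that shares sequence with Krt6b, had no counts in HDAC1-WT and 1.57, 1.05 and 1.47 CPM in HDAC1–E63R, at least 4.95-fold higher (adjusted p = 0.0011).

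None of the 8 was called between the untreated lines. In untreated libraries Krt5 stood at 0, 0 and 0.2 CPM in HDAC1-WT and 0, 0 and 0 CPM in HDAC1–E63R. Krt14 leaned the other way, though neither gene was called. Without the third untreated HDAC1–E63R library the edgeR log2 fold change between untreated lines was 3.77 at Krt14 (adjusted p = 0.079) and -2.64 at Krt5 (adjusted p = 0.32). Whether Krt14 was already higher before OHT is thus not settled. The interaction was called at Krtdap (log2 interaction 3.36 ± 0.66, adjusted p = 0.0036) and not at Krt5 (adjusted p = 0.042) or Krt14 (adjusted p = 0.91), where untreated libraries held few or no counts. Within the list it was called at 2 of 18 genes, and at 3 without the third untreated HDAC1–E63R library.

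Keratins of simple epithelium were expressed in both lines and rose too. Krt8, Krt18 and Krt19 form the filaments of single-layered epithelium and of trophectoderm. Krt8 rose from 58.4, 68.6 and 57.9 CPM to 208, 233 and 234 CPM (log2 fold change 1.87 ± 0.11, adjusted p = 3.84e-11), Krt18 from 47, 49.4 and 28.4 CPM to 113, 124 and 119 CPM (log2 fold change 1.51 ± 0.20, adjusted p = 4.64e-06), and Krt19 from 65.7, 51.6 and 48 CPM to 153, 164 and 149.6 CPM (log2 fold change 1.5 ± 0.18, adjusted p = 1.48e-06). The other 4 of the 7 tested keratins of the list were not called. Krt7 went with none of them, at 37.3, 34.4 and 34 CPM and 27.1, 21.5 and 25.5 CPM (log2 fold change -0.51 ± 0.16, adjusted p = 0.022). Without OHT Krt8 measured 48.3, 55.3 and 43.2 CPM and 62.8, 66.8 and 77.2 CPM, and its difference grew with OHT by 1.38 ± 0.16 on the log2 scale (adjusted p = 1.19e-05). Of 23 adhesion and junction genes 4 rose, 1 fell and 18 were not called. Pkp2, a desmosomal plaque protein, rose from 42.2, 48.6 and 37.3 CPM to 117, 119.8 and 99.9 CPM (log2 fold change 1.4 ± 0.12, adjusted p = 1.47e-08), Dsc2, a desmosomal cadherin, from 3.66, 4.99 and 2.91 CPM to 10.9, 14.1 and 12.3 CPM (log2 fold change 1.69 ± 0.26, adjusted p = 3.93e-05), and Cldn6, a tight-junction claudin, from 62.5, 65.8 and 62.5 CPM to 131, 132 and 126 CPM (log2 fold change 1.02 ± 0.10, adjusted p = 5.40e-08). Dsp, the desmosomal protein desmoplakin, measured 148, 135 and 154 CPM and 72, 79.8 and 66.2 CPM, a fall at the 2-fold limit (log2 fold change -1.0 ± 0.15, adjusted p = 2.04e-05) that DESeq2 did not call and that was lost in 4 of the 6 models that left out 1 OHT-treated library.

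**Figure D3:**
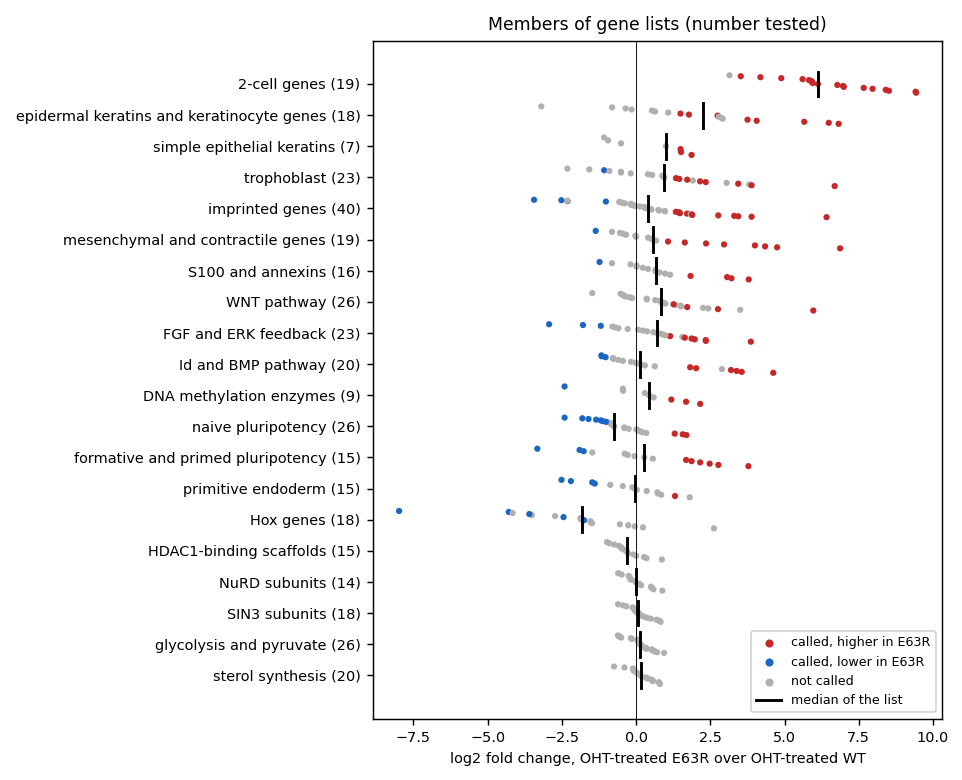
Log2 fold change of OHT-treated HDAC1–E63R over OHT-treated HDAC1-WT (x axis) for every tested member of 20 gene lists (y axis, number tested in brackets), with red and blue points for DEGs and a bar for the list's median. The 2-cell list lies wholly to the right (median 6.13), the Hox list mostly to the left (median -1.81), and the lists of complex subunits stay within 1 of 0. Values of members without counts in a group depend on a small prior count.

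Of 23 tested trophoblast genes 8 rose and 1 fell, with a median log2 fold change of 0.95. Of the 8 defining markers of trophoblast Cdx2 and Hand1 were among those that rose, and Eomes was the 1 that fell, a call lost without the third HDAC1-WT library. Hand1, a bHLH factor of trophoblast and mesoderm, rose from 8.38, 7.35 and 3.8 CPM to 23.9, 32.3 and 30.7 CPM (log2 fold change 2.16 ± 0.25, adjusted p = 6.63e-07), Fgfr2, an FGF receptor of epithelia and trophectoderm, from 4.72, 5.26 and 5.39 CPM to 26, 31.4 and 20.8 CPM (log2 fold change 2.35 ± 0.23, adjusted p = 7.02e-08), and Peg10, a retrotransposon-derived placental gene on chromosome 6, from 87.7, 81.7 and 96.8 CPM to 1011, 926 and 954 CPM (log2 fold change 3.44 ± 0.18, adjusted p = 2.87e-12). All 3 were apart from the HDAC1-WT libraries, a condition for naming them, and the interaction was called for each. Hand1 had been lower in untreated HDAC1–E63R, at 2.68, 3.39 and 2.52 CPM against 5.58, 7.52 and 8.3 CPM in untreated HDAC1-WT (log2 fold change -1.32 ± 0.28, adjusted p = 0.001). Cdx2, a trophectoderm factor, had no counts in HDAC1-WT and 1.32, 1.81 and 0.587 CPM in HDAC1–E63R, at least 4.51-fold higher (adjusted p = 0.0089), but it lost its call when any 1 of the 6 libraries was left out (adjusted p up to 0.034). Elf5 was not called, at 0, 0 and 0.177 CPM and 0.331, 0.953 and 1.76 CPM, nor was Gata3, at 3.76, 3.72 and 2.47 CPM and 7.95, 3.43 and 6.95 CPM. Tfap2c was lower by less than 2-fold, at 179, 181 and 209.7 CPM and 104, 101 and 101 CPM (log2 fold change -0.9 ± 0.14, adjusted p = 3.18e-05). The summed level of 8 trophoblast markers was 248 to 280 CPM in OHT-treated HDAC1-WT and 173 to 181 CPM in OHT-treated HDAC1–E63R.

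Imprinted genes, which are expressed from 1 parental copy, moved strongly in both directions. Of 40 tested members 12 rose and 4 fell. Mest, a paternally expressed gene of growth and metabolism on chromosome 6, had the smallest p among the genes named, rising from 5.3, 2.72 and 3.97 CPM to 332, 329.5 and 359 CPM (log2 fold change 6.41 ± 0.17, adjusted p = 3.06e-17). Nnat, a small membrane protein, rose from 7.13, 11.4 and 12.4 CPM to 97.8, 103 and 106 CPM (log2 fold change 3.3 ± 0.17, adjusted p = 4.27e-12), and Igf2, a fetal growth factor, from 0.77, 0.363 and 0.618 CPM to 7.95, 8.77 and 9.69 CPM (log2 fold change 3.89 ± 0.75, adjusted p = 4.79e-04). Cdkn1c, a maternally expressed inhibitor of cyclin-dependent kinases, rose from 44.9, 31.1 and 31.9 CPM to 115, 148 and 136 CPM (log2 fold change 1.89 ± 0.15, adjusted p = 3.94e-09). Groups did not overlap at any of these 4, a condition for naming them. Mest overlaps Copg2 on the other strand and Igf2 overlaps Gm49394 and Igf2os, so reads of these pairs cannot be told apart where strand was not used in counting, which is not given in the sources used here.

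In the Dlk1–Dio3 region of chromosome 12 genes moved in opposite directions. Its maternally expressed RNAs fell. Meg3 (chr12:109541001-109571726) fell from 126, 126 and 111 CPM to 9.19, 12.2 and 12.3 CPM (log2 fold change -3.44 ± 0.17, adjusted p = 2.46e-12), Rian (chr12:109603940-109661716) from 91.8, 106 and 109.7 CPM to 12.2, 20.7 and 21.1 CPM (log2 fold change -2.52 ± 0.18, adjusted p = 4.68e-10), and Mirg (chr12:109729764-109749460) from 6.26, 6.53 and 6.0 CPM to 0.993, 1.43 and 1.37 CPM (log2 fold change -2.31 ± 0.33, adjusted p = 1.21e-05). Paternally expressed genes at both ends of the region rose. Dio3 (chr12:110279068-110281097), a deiodinase, rose from 3.56, 2.09 and 1.41 CPM to 16.5, 16.5 and 15 CPM (log2 fold change 2.77 ± 0.33, adjusted p = 1.19e-06), and Dlk1 (chr12:109452823-109463336), a Notch-like ligand named here after its values were seen, from 4.53, 3.45 and 0.707 CPM to 7.95, 9.34 and 6.75 CPM (log2 fold change 1.48 ± 0.37, adjusted p = 0.0038). Rtl1, a paternally expressed gene between them, was not called, at 1.16, 0.272 and 0.53 CPM and 0.166, 0.191 and 0 CPM. Meg3, Rian and Mirg host small RNAs that are annotated as genes of their own, so part of their reads may have been counted elsewhere.

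The maternal RNAs were lower without OHT as well. In untreated cells Meg3 measured 78.5, 94 and 110.4 CPM in HDAC1-WT and 3.7, 7.23 and 6.52 CPM in HDAC1–E63R (log2 fold change -4.04 ± 0.19, adjusted p = 1.88e-12), and Rian 90.8, 107 and 108 CPM and 7.12, 7.46 and 3.77 CPM (log2 fold change -4.04 ± 0.20, adjusted p = 3.99e-12). The gap at Rian was smaller after OHT (log2 interaction 1.53 ± 0.26, adjusted p = 9.18e-04), and at Meg3 a change in the gap was not called (log2 interaction 0.6 ± 0.25, adjusted p = 0.18). OHT-treated HDAC1–Y48E stood at the opposite end, with 522, 645 and 638 CPM of Meg3 and 623, 649.8 and 677 CPM of Rian, and differed from OHT-treated HDAC1–E63R by 5.75 ± 0.19 and 5.18 ± 0.19 on the log2 scale (adjusted p = 3.15e-15 and adjusted p = 2.18e-14). H19, a maternally expressed RNA beside Igf2 that was named after its values were seen, measured 18.6, 16.8 and 15.3 CPM in OHT-treated HDAC1-WT, 58.2, 54.9 and 53.3 CPM in OHT-treated HDAC1–E63R and 1056, 1022 and 1059 CPM in OHT-treated HDAC1–Y48E. H19 thus lay highest in HDAC1–Y48E (log2 fold change 4.24 ± 0.17, adjusted p = 6.54e-14), while Igf2 measured 2.01, 1.63 and 0.9 CPM in HDAC1–Y48E, where a difference from HDAC1–E63R was not called (log2 fold change -2.53 ± 0.68, adjusted p = 0.012).

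**Figure D4:**
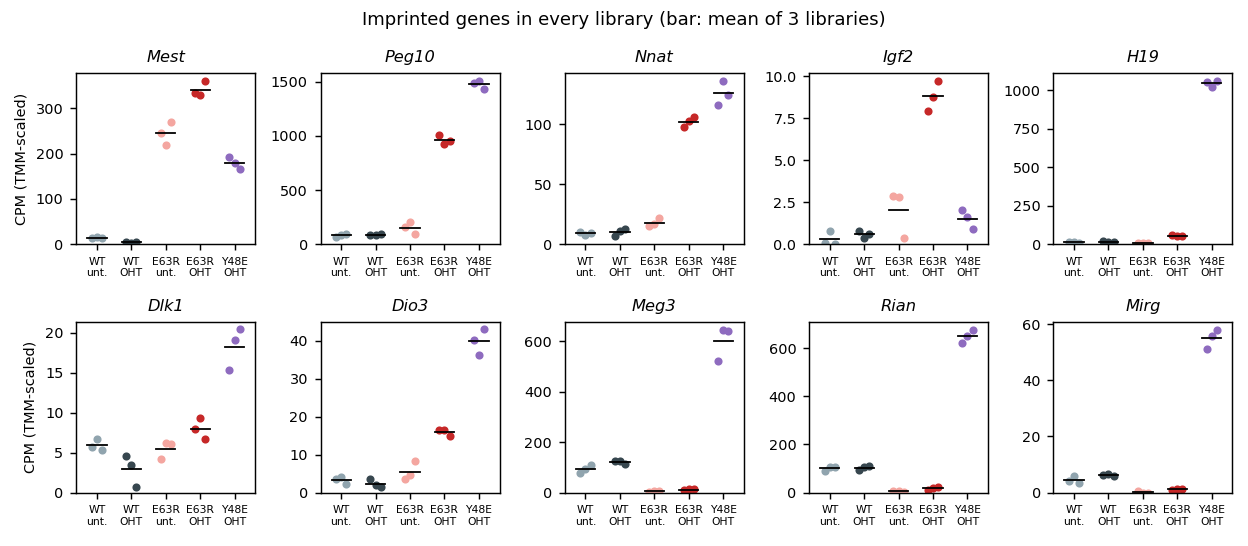
Scaled level in CPM (y axis, from 0, a scale of its own in each panel) of 10 imprinted genes in every library of 5 groups, with points for libraries and a bar for the mean of 3. Meg3, Rian and Mirg were lowest in both HDAC1–E63R groups, intermediate in both HDAC1-WT groups and highest in OHT-treated HDAC1–Y48E, whereas Mest was low in both HDAC1-WT groups.

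Contractile and mesenchymal genes were higher. Of 19 tested members 8 rose and 1 fell, with a median log2 fold change of 0.57. Tagln, an actin-binding protein of smooth muscle, rose from 1.35, 1.45 and 0.53 CPM to 23.5, 35.5 and 30.9 CPM (log2 fold change 4.75 ± 0.38, adjusted p = 3.22e-09), Thbs1, a matrix glycoprotein, from 1.25, 1.18 and 0.618 CPM to 20.2, 20.4 and 21.7 CPM (log2 fold change 4.34 ± 0.37, adjusted p = 8.62e-09), and Myl9, a myosin light chain, from 1.45, 1.36 and 0.707 CPM to 10.9, 8.96 and 7.53 CPM (log2 fold change 2.96 ± 0.39, adjusted p = 4.93e-06). Ankrd1, a target of mechanical signalling, had 1 count in HDAC1-WT and 4.47, 6.76 and 3.72 CPM in HDAC1–E63R, a ratio of 163 (95% counting interval 28.8 to 6464) with adjusted p = 1.43e-06. The lines were apart in every library, as the rule for naming these genes required. Fn1, which encodes fibronectin, moved the other way, from 1117, 1065 and 1086 CPM to 447, 430 and 397 CPM (log2 fold change -1.36 ± 0.24, adjusted p = 1.90e-04). Tagln was already high in untreated HDAC1–E63R, at 13.8, 16.4 and 26.8 CPM against 0.651, 2.17 and 0.3 CPM (log2 fold change 4.14 ± 0.39, adjusted p = 5.84e-08), whereas Ankrd1 was not, at 1.29, 2.03 and 0.801 CPM against 0.186, 1.45 and 1.6 CPM. Of 16 S100 and annexin genes 4 rose and 1 fell, led by S100a6, a calcium-binding protein, from 15, 16 and 17 CPM to 215, 216 and 235 CPM (log2 fold change 3.79 ± 0.23, adjusted p = 6.63e-11), and Anxa3 from 5.39, 2.54 and 3.97 CPM to 38.4, 34.6 and 37.3 CPM (log2 fold change 3.21 ± 0.28, adjusted p = 1.19e-08).

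Signalling genes included some of the most precise changes. Of 20 genes of the BMP pathway 6 rose and 3 fell. BMP4 is a ligand of this pathway and the ID proteins, inhibitors of bHLH factors, are its direct targets. Bmp4 rose from 6.55, 7.8 and 9.8 CPM to 30.9, 26.4 and 28.3 CPM (log2 fold change 1.82 ± 0.24, adjusted p = 3.56e-06), Id1 from 56.7, 44.4 and 44.5 CPM to 188, 217 and 186 CPM (log2 fold change 2.02 ± 0.17, adjusted p = 1.20e-08), and Id3 from 6.26, 9.25 and 6.27 CPM to 79.4, 84.5 and 93.3 CPM (log2 fold change 3.56 ± 0.17, adjusted p = 1.31e-12). No HDAC1–E63R library overlapped with an HDAC1-WT library at these genes, which the rule for naming them required. The ligand gene Bmp7 fell from 81.4, 91.7 and 62.9 CPM to 34.5, 36 and 34.5 CPM (log2 fold change -1.17 ± 0.15, adjusted p = 3.09e-06), and Id4, another ID gene, from 14.6, 12.6 and 14.4 CPM to 5.05, 6.76 and 6.85 CPM (log2 fold change -1.16 ± 0.24, adjusted p = 8.34e-04). Id3 differed less without OHT, at 4.37, 4.71 and 4.2 CPM and 10.9, 14.2 and 17.4 CPM, and the interaction was called for it (log2 interaction 1.89 ± 0.26, adjusted p = 7.91e-05) and for Id1 (log2 interaction 1.73 ± 0.24, adjusted p = 1.23e-04).

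In the FGF and ERK pathway, whose ligands act through ERK to drive exit from the naive state, 7 of 23 tested genes rose and 3 fell. Feedback inhibitors of the pathway were among those that rose. Dusp4, an ERK phosphatase on chromosome 8, rose from 11.6, 8.25 and 6.71 CPM to 117, 135 and 133 CPM (log2 fold change 3.86 ± 0.20, adjusted p = 3.46e-12), and Spry4 from 14, 14.4 and 34.6 CPM to 77.9, 87.4 and 83.2 CPM (log2 fold change 1.98 ± 0.26, adjusted p = 4.26e-06). Both were clear of the HDAC1-WT libraries, a condition for naming them. Of the ligands, Fgf4 (above) and Fgf15 fell, Fgf15 from 46.7, 46.3 and 51.1 CPM to 7.45, 6.29 and 5.09 CPM (log2 fold change -2.93 ± 0.19, adjusted p = 2.04e-10). Fos, an immediate early gene, fell from 121, 100.4 and 104 CPM to 35.4, 32.1 and 26.7 CPM (log2 fold change -1.79 ± 0.17, adjusted p = 3.50e-08). Of 26 WNT pathway genes 4 rose and none fell by edgeR, 7 rose and none fell by DESeq2, and 7 rose and 1 fell without the third untreated HDAC1–E63R library in the model. The ligand gene Wnt7a, on chromosome 6, rose from 0, 0 and 0.795 CPM to 13.1, 18.6 and 22 CPM (log2 fold change 5.97 ± 0.65, adjusted p = 6.62e-07), Wnt4 from 3.18, 1.45 and 0.883 CPM to 13, 12.1 and 12 CPM (log2 fold change 2.76 ± 0.49, adjusted p = 1.89e-04), and Wnt7b from 23.4, 20.9 and 10.2 CPM to 54.7, 59.5 and 65.2 CPM (log2 fold change 1.72 ± 0.23, adjusted p = 5.00e-06). Wnt7b had been lower in untreated HDAC1–E63R, with 9.52, 10.5 and 6.06 CPM against 19.4, 24.2 and 14.6 CPM in HDAC1-WT, a call lost without the third HDAC1–E63R library, and its interaction was called (log2 interaction 2.87 ± 0.34, adjusted p = 1.72e-05).

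The clustered Hox genes that were called were lower in HDAC1–E63R, most of them genes of posterior identity. Hox genes are low in ESCs and pattern the body axis later. Of 18 tested members 5 fell and none rose, at a median log2 fold change of -1.81, and 7 fell by DESeq2 and when the third untreated HDAC1–E63R library was left out of the model. Hoxc13 fell from 22.1, 24.3 and 18.6 CPM to 3.48, 4.38 and 4.11 CPM (log2 fold change -2.44 ± 0.19, adjusted p = 2.89e-09) and Hoxb13 from 10.7, 10.2 and 4.95 CPM to 0.248, 0.762 and 0.293 CPM (log2 fold change -4.29 ± 0.53, adjusted p = 2.14e-06). Hoxc10 measured 3.56, 2.18 and 3.44 CPM in HDAC1-WT with no counts in HDAC1–E63R, at least 11.1-fold lower (adjusted p = 1.70e-04), and Hoxc11 measured 1.93, 1.45 and 4.24 CPM with none, at least 9.2-fold lower (adjusted p = 5.31e-04). Hoxc11 is not a member of the list. Hoxc4, which is expressed further towards the head than the others, fell from 7.13, 5.99 and 4.95 CPM to 0.497, 0.762 and 0.196 CPM (log2 fold change -3.6 ± 0.67, adjusted p = 2.62e-04). Hoxb9 measured 4.91, 4.99 and 3.18 CPM and 1.16, 1.05 and 1.66 CPM (log2 fold change -1.75 ± 0.49, adjusted p = 0.0087), and its call was lost in 5 of the 6 models that left out 1 OHT-treated library. The 5 list members that fell and Hoxc11 were all called lower without OHT as well. Meis2, a homeobox partner of HOX proteins, fell from 11.4, 12.4 and 15 CPM to 0.248, 0.667 and 0.88 CPM (log2 fold change -4.44 ± 0.58, adjusted p = 4.63e-06). Nr2f2, an orphan nuclear receptor, measured 2.98, 3.17 and 3.53 CPM against no counts, at least 11.7-fold lower (adjusted p = 3.48e-04). Hoxb13 and Meis2 stood under 1 CPM in every OHT-treated HDAC1–E63R library.

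Some primitive endoderm genes fell, and mesendoderm genes split. Of 15 primitive endoderm genes 4 fell and 1 rose, at a median log2 fold change of -0.04 with 7 of the 15 higher. Among the falls, Sox7 lost its call in 4 of the 6 models that left out 1 OHT-treated library, and Gata4 in 3. Amn, the 1 that rose, lost its call in 5. Gata6, a GATA factor of primitive endoderm, fell from 6.74, 6.62 and 7.68 CPM to 2.48, 0.858 and 1.17 CPM (log2 fold change -2.19 ± 0.40, adjusted p = 2.45e-04), and Sparc, a secreted matrix protein, from 416, 418 and 340.4 CPM to 144, 159 and 145 CPM (log2 fold change -1.39 ± 0.10, adjusted p = 1.04e-09). Of 10 tested mesendoderm and primitive streak genes 2 rose, namely Hand1 and Bmp4 (above), and Gsc and Eomes fell, at a median of 0.27. Gsc, a homeobox gene of the primitive streak, fell from 8.19, 7.35 and 10.8 CPM to 1.24, 1.05 and 0.293 CPM (log2 fold change -3.31 ± 0.63, adjusted p = 3.33e-04). Eomes, a T-box gene of trophoblast and streak, fell from 27.6, 21.4 and 29.9 CPM to 11.4, 11.6 and 14.5 CPM (log2 fold change -1.07 ± 0.20, adjusted p = 3.14e-04). At Gata6, Sparc, Gsc and Eomes every HDAC1–E63R library was below every HDAC1-WT library, a condition for naming them. Gata6, Sparc and Gsc were lower in untreated HDAC1–E63R as well (Gata6 log2 fold change -1.63 ± 0.38, adjusted p = 0.0027). The summed level of 6 primitive endoderm markers was 84.7 to 98.8 CPM in OHT-treated HDAC1-WT and 70.5 to 83.5 CPM in OHT-treated HDAC1–E63R. Of these markers Gata4 and Gata6 were called lower and none higher. Sox17 (means of 0.68 and 2.4 CPM) and Dab2 (5.09 and 9.2 CPM) went the other way without a call.

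Some of the falls with the smallest p were at genes outside these lists. Fxyd6, a regulator of the sodium pump, fell from 539, 507 and 470.5 CPM to 113, 109 and 108 CPM (log2 fold change -2.2 ± 0.10, adjusted p = 1.09e-12), Jam2, a junctional adhesion molecule, from 353, 376 and 359.9 CPM to 83.8, 92 and 85.7 CPM (log2 fold change -2.06 ± 0.10, adjusted p = 1.09e-12), and Camk2n1, an inhibitor of CaM kinase II, from 171, 163 and 173 CPM to 39.7, 36.1 and 40.9 CPM (log2 fold change -2.12 ± 0.11, adjusted p = 2.46e-12). The HDAC1–E63R libraries lay close together and far below the HDAC1-WT libraries. Tlr2, a receptor for bacterial lipoproteins, fell from 75.4, 78.5 and 76.9 CPM to 9.11, 9.72 and 11.8 CPM (log2 fold change -2.91 ± 0.16, adjusted p = 8.63e-12), and Fxyd2, a related pump regulator, from 21.4, 21 and 22 CPM to 1.24, 0.667 and 1.37 CPM (log2 fold change -4.28 ± 0.35, adjusted p = 6.53e-09). Without OHT Tlr2 stood at 80.8, 62.4 and 70.8 CPM in HDAC1-WT and 10.1, 11.1 and 8.01 CPM in HDAC1–E63R, and a change of the gap with OHT was not called (log2 interaction -0.04 ± 0.22, adjusted p = 0.95), and Fxyd6 at 510, 554 and 484 CPM and 230.3, 217 and 257 CPM, a smaller gap than after OHT (log2 interaction -1.06 ± 0.14, adjusted p = 6.31e-05), although without the third untreated HDAC1–E63R library the interaction fell just short of 2-fold.

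A few falls grew with OHT. Tbx4, a T-box factor, fell from 11.4, 9.52 and 6.8 CPM to 1.24, 0.762 and 0.978 CPM (log2 fold change -3.19 ± 0.33, adjusted p = 1.95e-07), with an interaction of -2.01 ± 0.44 on the log2 scale (adjusted p = 0.0067). Rasgrp1, an activator of RAS, fell from 5.78, 6.35 and 3.71 CPM to 0.662, 0.762 and 0.293 CPM (log2 fold change -3.17 ± 0.43, adjusted p = 7.64e-06), Dmrt1, a DM-domain factor of the germline, from 51.6, 43.6 and 44.8 CPM to 9.35, 16.1 and 10.3 CPM (log2 fold change -1.97 ± 0.18, adjusted p = 1.86e-08), and Rnf130, a ubiquitin ligase, from 63.6, 58.7 and 47.7 CPM to 15.1, 14.1 and 14.6 CPM (log2 fold change -1.96 ± 0.14, adjusted p = 7.25e-10). Rasgrp1, Dmrt1 and Rnf130 were not DEGs between the untreated lines, and the interaction was called for each. This pattern, and that of the genes called in both comparisons, was set by the rule that chose them. Scml2, a Polycomb-related gene of the X chromosome, showed the reverse, with a smaller gap after OHT (78.6, 77.8 and 77.6 CPM and 15.8, 17 and 16.4 CPM) than before it (94.7, 97.4 and 93.6 CPM and 6.56, 7.34 and 6.63 CPM), and an interaction of 1.55 ± 0.18 (adjusted p = 1.23e-05).

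Germline and chromatin genes split. Of 34 germline and meiosis genes 4 rose and 4 fell (11.8% each), where 5.93% and 3.43% of all tested genes did. Tdrd12, a Tudor-domain gene of the piRNA pathway, rose from 15.7, 11.1 and 11.8 CPM to 35.8, 43.2 and 43.5 CPM (log2 fold change 1.67 ± 0.18, adjusted p = 3.81e-07), while Smc1b, a meiotic cohesin, fell from 112, 122 and 145 CPM to 50.7, 46.3 and 51.6 CPM (log2 fold change -1.35 ± 0.14, adjusted p = 1.25e-07). Prdm1, a repressor of somatic genes in germ cells, fell from 27.4, 27.1 and 26.4 CPM to 10.2, 8.77 and 10.3 CPM (log2 fold change -1.47 ± 0.19, adjusted p = 2.82e-06). Of 25 Polycomb genes 2 rose, namely Ezh2, the H3K27 methyltransferase gene on chromosome 6, from 45.1, 33.6 and 42.6 CPM to 123, 111 and 115 CPM (log2 fold change 1.53 ± 0.12, adjusted p = 3.47e-09), and Phf19, a PRC2 accessory factor, from 14.6, 17.2 and 17.7 CPM to 42.5, 33.6 and 32.8 CPM (log2 fold change 1.14 ± 0.14, adjusted p = 2.65e-06). Hist1h1a, a linker histone gene, rose from 0.193, 0.363 and 0.53 CPM to 5.71, 5.43 and 8.22 CPM (log2 fold change 4.1 ± 0.49, adjusted p = 2.60e-06). By edgeR and by DESeq2 none of 26 glycolysis genes, 20 of threonine and one-carbon metabolism or 20 of sterol synthesis was a DEG. An adjusted p under 0.01 alone, reached by 19.3% of all tested genes, was reached by 5 glycolysis genes that were higher and 4 that were lower. Of the threonine and one-carbon genes 3 were higher and 3 lower at that limit, and of the sterol genes 6 were higher and none lower. Of 28 cell cycle and replication genes 1 was called, a rise (3.57%). That share and the 8.0% of Polycomb genes that rose lay near the 5.93% of all tested genes. At an adjusted p under 0.01 alone 6 cell cycle genes were higher and 2 lower, and 3 Polycomb genes were higher and 5 lower.

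Genes that were higher gathered on 2 chromosomes. On chromosome 6 the median log2 fold change over 819 genes with a mean of at least 1 CPM was 0.585, and 16.3% of 943 tested genes were called higher. On chromosome 8 the median was 0.434 over 935 genes and 9.52% of 1029 were called higher. The medians of the other 18 chromosomes ran from -0.137 to 0.0331, with 2.90% to 8.14% called higher. Nearly the same shift stood between the untreated lines, with medians of 0.499 and 0.426. Within HDAC1–E63R the change with OHT had a median of 0.0414 on chromosome 6 and -0.00757 on chromosome 8. Each OHT-treated HDAC1–E63R library showed the shift between the lines, with medians over the HDAC1-WT mean of 0.561, 0.541 and 0.522 on chromosome 6 and of 0.402, 0.403 and 0.412 on chromosome 8. OHT-treated HDAC1–Y48E over OHT-treated HDAC1-WT gave 0.562 and 0.293. Copy number was not measured, and its part in these values was not tested.

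**Figure D5:**
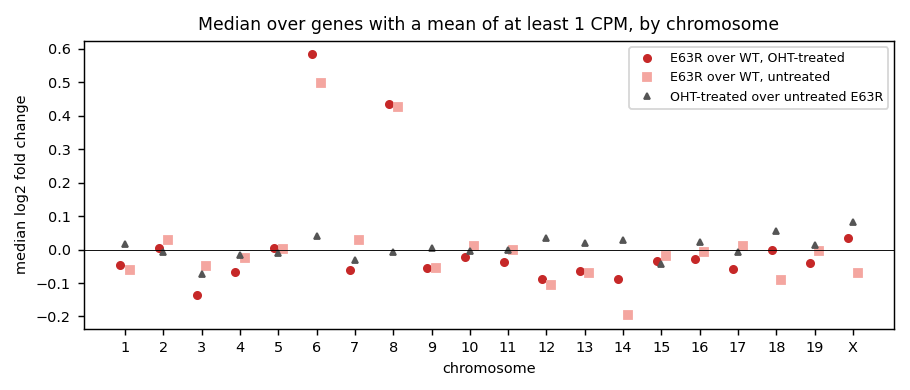
Median log2 fold change (y axis) over genes with a mean of at least 1 CPM on each chromosome (x axis), for HDAC1–E63R over HDAC1-WT with OHT (circles) and without it (squares) and for HDAC1–E63R with over without OHT (triangles). Chromosomes 6 and 8 stand above the others in both comparisons of the lines and not in the change with OHT.

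Of the genes named above that were higher in HDAC1–E63R, Mest, Copg2, Peg10, Wnt7a, Dppa3, Hdac11 and Ezh2 lie on chromosome 6 and Dusp4 on chromosome 8, as does Sin3b, which was no DEG. With both chromosomes left out of the model, 883 genes were higher and 513 lower. Outside them, and in the full model, 840 of 16556 tested genes were higher and 593 lower. Most of the differences described, among them those of the 2-cell, keratin, Hox and Dlk1–Dio3 genes, are at genes of other chromosomes.

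OHT-treated HDAC1–Y48E was set beside OHT-treated HDAC1–E63R for the named genes. Both share the HDAC1-WT group as reference, so the difference was tested directly between the mutant lines, where 445 genes (2.37%) were higher and 399 (2.12%) lower in HDAC1–Y48E. Fold changes in this comparison are of HDAC1–Y48E over HDAC1–E63R. Krt8 measured 714, 749 and 763 CPM in HDAC1–Y48E and was higher there than in HDAC1–E63R (log2 fold change 1.72 ± 0.11, adjusted p = 2.34e-10), as were Krt14, at 27.2, 29 and 30.9 CPM (log2 fold change 1.34 ± 0.33, adjusted p = 0.0071), and Id3, at 219.8, 218 and 253 CPM (log2 fold change 1.43 ± 0.15, adjusted p = 3.10e-07). Prdm14 was lower in HDAC1–Y48E, at 2.71, 3.9 and 3.78 CPM (log2 fold change -1.71 ± 0.20, adjusted p = 2.27e-06), as was Fgf4, at 41.4, 46.9 and 42.5 CPM (log2 fold change -1.54 ± 0.09, adjusted p = 6.50e-11). Thus several genes lay further from HDAC1-WT in HDAC1–Y48E. For Krt5, at 14.3, 16.1 and 15.7 CPM, a difference between the mutant lines was not called (log2 fold change 0.43 ± 0.32, adjusted p = 0.41), nor was it for S100a6, at 267, 272 and 267 CPM (log2 fold change 0.28 ± 0.20, adjusted p = 0.39). Others were higher in HDAC1–E63R than in HDAC1–Y48E, as was Etv4, at 31.4, 30.1 and 22.9 CPM in HDAC1–Y48E (log2 fold change -1.61 ± 0.17, adjusted p = 3.54e-07), and Bmp4, at 13.3, 15.2 and 10.3 CPM (log2 fold change -1.14 ± 0.23, adjusted p = 0.001). Within the 2-cell list 7 of 19 genes were called higher in HDAC1–Y48E than in HDAC1–E63R and none lower, and within the naive pluripotency list 10 of 26 were called lower and 1 higher.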

How the data were processed

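RNA-seq libraries were prepared with the NEBNext Ultra RNA kit from 6 groups of 3 libraries. The deposited files hold whole-number counts of reads per gene for 53672 genes in each library, which the authors made with HTSeq from reads aligned to mm10. The submitters' processing notes name HISAT2 2.1.0 and SAMtools 1.9. The annotation release and the strand setting are not given in the sources used here. HTSeq's 5 summary entries, which took 59.4% to 61.2% of each library, were left out.

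Counts were analysed in R 4.3.3 with edgeR 4.0.16 and limma 3.58.1. All 18 libraries entered 1 model with a mean per group, after filterByExpr (18791 genes) and TMM scaling, and contrasts were tested by glmQLFTest with Benjamini-Hochberg adjustment. DEGs passed 0.01 on the adjusted p and 1 on the size of the log2 fold change. The steps were tested on simulated data. CPM values use the scaled library sizes. A fold against a group without counts is a lower bound, which divides the higher group's mean by the mean 3-count floor of single libraries. Against a group with 1 to 3 counts in its libraries together, a fold carries a 95% counting interval.

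Named genes were Hdac1, Hdac2, the scaffold genes and the genes the study names in its RNA-seq results, together with rule-based sets among DEGs whose libraries did not overlap and whose higher group had a mean of at least 1 CPM, without predicted genes and pseudogenes. These sets held, in each direction, the 6 largest changes also called untreated, the 6 largest with an interaction in the same direction, the 6 smallest p-values, and at most 5 members of each gene list. List members at or near 0 and markers could be given as values. A gene that these rules name is not reported here. The comparison, the lists and the rules were chosen with earlier results of these data known. Promoter windows came from RefSeq. Copies were transcripts sharing at least 200 bases at 95% identity.

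Alternatives were RLE scaling, no filter, a replicate block, fewer libraries in the model, glmTreat against 2-fold, an adjusted p under 0.05, counts thinned to the smallest library, DESeq2 1.42.0, and each library left out in turn. Leaving out the genes of chromosomes 6 and 8, and giving list counts without the third untreated HDAC1–E63R library, were added after the data were seen.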

Additional observations from a re-analysis of the deposited data

Results flagged for a closer look

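The results here were picked out because the difference between the HDAC1–E63R and HDAC1-WT lines itself differed between OHT-treated and untreated cells, by edgeR's test of the interaction. That difference shifted upward with OHT, toward higher levels in HDAC1–E63R, at 234 genes and downward at 82. Each value below is the shift on the log2 scale with its standard error.

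Among 2-cell genes the shift was 3.16 ± 0.58 at Zscan4d and 3.3 ± 0.66 at Zscan4c. It was fitted as 5.89 ± 0.86 at Zscan4e, 5.56 ± 0.80 at Zscan4f and 4.28 ± 0.83 at Usp17ld, which had 1 or 2 counts in OHT-treated HDAC1-WT, so that these sizes depend on the prior count. Among epithelial genes it was 3.36 ± 0.66 at Krtdap, 1.38 ± 0.16 at Krt8, 1.48 ± 0.26 at Krt19, 1.96 ± 0.37 at Dsc2 and 1.03 ± 0.14 at Cldn6.

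Among imprinted genes it was 2.36 ± 0.21 at Mest, 2.57 ± 0.23 at Peg10, 2.34 ± 0.25 at Nnat, 1.35 ± 0.21 at Cdkn1c and 1.53 ± 0.26 at Rian, where the gap between the lines became smaller. The gap also became smaller at Scml2 (1.55 ± 0.18) and Otx2 (1.88 ± 0.43). Hand1 (3.47 ± 0.37) and Wnt7b (2.87 ± 0.34) passed from lower to higher in HDAC1–E63R, and so did Col1a1 (2.4 ± 0.44), a collagen gene whose rise after OHT lost its call with 1 library left out (adjusted p up to 0.033).

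In signalling and contractile genes the shift was 1.89 ± 0.26 at Id3, 1.73 ± 0.24 at Id1, 2.52 ± 0.28 at Dusp4, 1.83 ± 0.33 at Fgfr2, 1.79 ± 0.36 at S100a6 and 2.75 ± 0.34 at Anxa1, an annexin. It was 5.26 ± 1.15 at Smad9, a BMP effector whose call after OHT was also lost with 1 library left out (adjusted p up to 0.024), and 2.27 ± 0.47 at Tex15, a germline gene. At Ankrd1, with 1 count in OHT-treated HDAC1-WT, it was fitted as 6.52 ± 1.09.

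The downward shifts were -2.63 ± 0.57 at Rasgrp1, -2.01 ± 0.44 at Tbx4, -1.25 ± 0.19 at Rnf130, -1.12 ± 0.15 at Camk2n1, -1.09 ± 0.24 at Dmrt1, -1.06 ± 0.14 at Fxyd6 and -1.02 ± 0.12 at Fgf4. Without the third untreated HDAC1–E63R library those of Fxyd6 and Fgf4 were both -0.99, under the limit of 2-fold. Without it the interaction was also called at further named genes, among them Zscan4a, Krt18, Dio3 and Wnt4 upward and Fn1 and Prdm14 downward.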

How the results depend on the processing

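The direction of every named gene stayed under all the settings run, except that of Mier2, a MIER scaffold near no change, which ran from -0.0434 to 0.0543 on the log2 scale with 1 library left out. Of 147 named DEGs 61 were no longer called by glmTreat, among them Nanog, Fgf4, Dnmt3l, Tfcp2l1, Krt18, Krt19, Cldn6, Dsc2 and Wnt7b, and 13 to 21 with 1 OHT-treated library of either line left out. Between the OHT-treated lines, glmTreat against 2-fold left 368 genes higher and 143 lower, whereas no other setting moved these counts by over 1.5 times. With 1 OHT-treated library left out they ran from 855 to 918 and from 541 to 601, and without the third untreated HDAC1–E63R library they were 1352 and 746. Between the untreated lines, glmTreat gave 125 and 163, a model of only the 6 libraries compared gave 209 and 295, and leaving out 1 library gave 520 to 728 and 663 to 900. The interaction depended most on the settings. It was called upward and downward at 401 and 129 genes without the filter on low counts, 99 and 45 in a model of the 12 HDAC1-WT and HDAC1–E63R libraries, 438 and 156 at an adjusted p under 0.05, 403 and 133 by DESeq2, and 39 and 0 by glmTreat. With 1 library left out it gave 152 (without the first untreated HDAC1-WT library) to 367 (without the third untreated HDAC1–E63R library) and 52 (without the first or second OHT-treated HDAC1–E63R library) to 146 (without the second untreated HDAC1–E63R library), and 54 downward without the first untreated or the second OHT-treated HDAC1-WT library. By glmTreat 90 genes were higher and 68 lower in both comparisons of the lines. DEGs with an interaction in their own direction numbered 229 higher and 48 lower without the filter, 240 and 65 at an adjusted p under 0.05, 228 and 56 by DESeq2, 212 and 45 without the third untreated HDAC1–E63R library, and 21 and 0 by glmTreat, and 60 higher in the model of 12 libraries. The causes of these changes were not tested. Replicate numbers of the OHT-treated lines did not pair the libraries, with correlations of deviations of 0.00311, 0.000679 and -0.0217. With the replicate block 1043 genes were higher and 612 lower after OHT, 569 and 791 untreated, and 212 and 74 had an interaction. With 3 libraries a group, levels under the floor of 0.248 to 0.294 CPM could not be told from 0.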

Other observations

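Several further gene groups held members that differed between the OHT-treated lines, where 5.93% of all tested genes rose and 3.43% fell. Of 15 LIF and STAT3 targets 3 rose and 2 fell. Gbx2, a homeobox target of STAT3, rose from 7.13, 3.54 and 5.65 CPM in the OHT-treated HDAC1-WT libraries to 23.9, 17.1 and 18.2 CPM in the OHT-treated HDAC1–E63R libraries (log2 fold change 1.86 ± 0.25, adjusted p = 5.74e-06), and Ier3, an early response gene, from 14.7, 16.8 and 22.7 CPM to 51.6, 55.4 and 52.5 CPM (log2 fold change 1.55 ± 0.24, adjusted p = 4.34e-05), while the list's Klf4 and Tfcp2l1 were among those that fell. Of 24 neural genes 5 rose and 3 fell. Sox11, a progenitor factor, rose from 5.97, 3.72 and 1.85 CPM to 11.8, 12.8 and 15.8 CPM (log2 fold change 1.81 ± 0.26, adjusted p = 1.63e-05), and Stmn2, a microtubule regulator of neurons, fell from 347, 335 and 379 CPM to 163, 167 and 159.6 CPM (log2 fold change -1.12 ± 0.13, adjusted p = 8.27e-07). The summed level of Pax6, Sox1, Nes and Tubb3 was 75.6 to 96.5 CPM in HDAC1-WT and 120 to 124 CPM in HDAC1–E63R. Tubb3, the largest part of the sum with means of 57.9 and 75.4 CPM, was not called. Pax6 and Nes were called higher and Sox1 lower (means of 11.1 and 4.85 CPM). Each of these calls was lost in at least 1 of the 6 models that left out 1 OHT-treated library.

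Of 20 endothelial and blood genes 4 rose by edgeR, and 6 rose by DESeq2 and without the third untreated HDAC1–E63R library in the model. The calls of Kdr and Cd34 were lost with the replicate block and without the first or the second OHT-treated HDAC1-WT library. Flt1, a VEGF receptor, rose from 4.91, 3.54 and 8.3 CPM to 15, 19.1 and 17.8 CPM (log2 fold change 1.62 ± 0.25, adjusted p = 3.42e-05), and Nrp2, a VEGF and semaphorin co-receptor, from 5.58, 6.08 and 5.65 CPM to 29, 40.1 and 24.9 CPM (log2 fold change 2.44 ± 0.22, adjusted p = 2.71e-08). Of 28 matrix and integrin genes 4 rose and 2 fell. The integrin gene Itga7 rose from 2.7, 1.72 and 3.8 CPM to 26.4, 23.8 and 27.9 CPM (log2 fold change 3.24 ± 0.46, adjusted p = 1.22e-05), and Itga1 from 0.193, 0.272 and 0.353 CPM to 4.55, 5.24 and 3.52 CPM (log2 fold change 3.96 ± 0.81, adjusted p = 6.84e-04). The libraries of the lines did not overlap at any of these 4 genes, a condition for naming them. Of 24 p53 targets and CDK inhibitors Cdkn1c rose and Pmaip1, a proapoptotic BH3 gene, fell from 184, 174 and 167 CPM to 71.3, 67.8 and 66.5 CPM (log2 fold change -1.35 ± 0.11, adjusted p = 6.31e-09). Of 18 linker and variant histones 1 rose and 1 fell (5.56% each) and of 4 tested fibroblast markers 1 rose. The p53 list, at 4.17% each way, and the histone list lay near the shares of all tested genes by this count of DEGs. At an adjusted p under 0.01 alone, 1 gene of the p53 list was higher and 7 were lower, at a list median log2 fold change of -0.31. Of the histone list 2 were higher and 4 lower at that limit, and of all 18791 tested genes 1980 and 1651.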
